A study of Caenorhabditis elegans with 10 samples.

Results

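The step from early to late L4 in hermaphrodite Caenorhabditis elegans was read from 2 of 10 whole-animal RNA-seq libraries. The early L4 library came from hermaphrodites 36 to 40 h after hatching and the late L4 library from hermaphrodites 42 to 46 h after hatching. They were chosen by the sex and time in the labels. All 10 libraries came from him-5 animals, in which the X chromosome is often lost at meiosis so that males are frequent, grown at 20 °C on NGM plates with OP50 bacteria, and all RNA was taken with TRIzol. The other hermaphrodite libraries were of late L3 (30 to 34 h) and young adult (48 to 52 h and 54 to 58 h) animals, and males had 1 library at each of the same 5 windows. With 1 library a side there is no replicate check, no test was made, and every difference below is a difference between these libraries.

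In the L4 stage the hermaphrodite gonad ends sperm production and begins to make oocytes, which later take up yolk made by the intestine. In the same hours the vulva and uterus take shape, and the epidermis prepares the last molt, in which a transient outer matrix and the larval cuticle give way to the adult cuticle. Genes of a molt are known to be transcribed in pulses, so the age of the animals within the stage bears on their level.

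The early library held 8233794 reads on genes and the late library 8189325, so both had about the same depth, against up to 18480591 in the other hermaphrodite libraries. Reads were found for 14580 genes in early and 16662 in late L4. The early count was the lowest of the 10 libraries, against 19278 genes in late L3 hermaphrodites with 9490350 gene reads. The part of this low count in the genes without early L4 reads was not tested. The share of all reads that did not align was 4.22% in early and 11.81% in late L4, and its part in the differences was not tested. The share of gene reads on ribosomal RNA genes was 6.72% and then 9.62%, and that on the mitochondrial genome 11.14% and then 5.79%. Markers of males were near 0 in both libraries. The 13 genes of that list summed to 4.91 CPM in early and 2.29 CPM in late L4, against 107 and 187 CPM in the male libraries of these windows, with 7 and then 6 of them at 0 reads. The male-determining gene her-1 had 0 reads in both, as had the early embryonic gene pes-10. Whole-animal values cannot tell apart fewer cells of a type and less RNA per cell.

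Levels are given in CPM, read counts relative to library size scaled by trimmed-mean (TMM) factors, which were 1.06315 in early and 1.06731 in late L4. Each ratio is the log2 of late over early L4 on CPM + 1, which understates changes of genes with few reads. A gene is called higher or lower here when it passed 2-fold on that scale and had at least 5 CPM in the higher library. Of 10749 genes that reached this minimum in either library, 1507 (14%) were at least 2-fold higher in late L4 and 1782 (16.6%) at least 2-fold lower. At least 4-fold differences were found upward for 424 genes (3.94%) and downward for 618 genes (5.75%). These 10749 genes had a median log2 ratio of 0.04 and quartiles of -0.65 and 0.64. The higher genes together held 2.75% of gene reads in early and 12.18% in late L4, and the lower genes 12.95% and 3.15%. Of the genes 4-fold higher, 101 had no read at all in early L4, and 29 of those 4-fold lower had none in late L4.

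**Figure D1:**
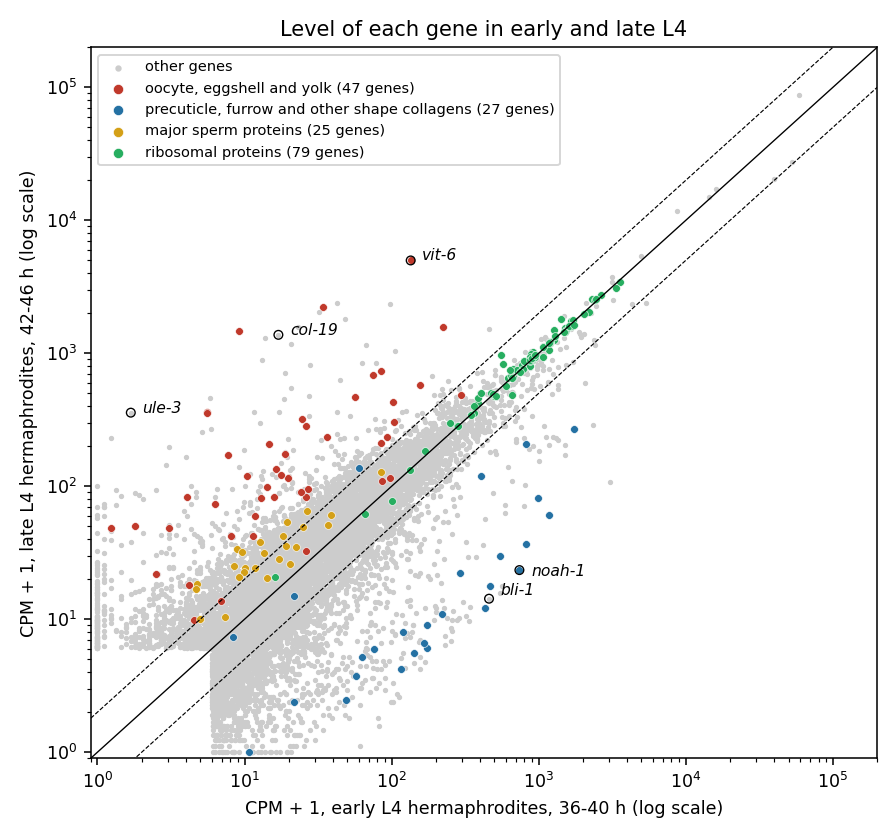
CPM + 1 in the early (x) and late (y) L4 hermaphrodite library, on log axes, 1 point per gene with at least 5 CPM in either. The solid line marks equal levels and the dashed lines 2-fold. All eggshell and yolk genes at the minimum and 22 of 27 oocyte regulators lie above the upper dashed line, such as vit-6 at 134 and 4993 CPM. Precuticle and shape collagen genes lie mostly below the lower one, such as noah-1 at 739 and 22.4 CPM, and ribosomal protein genes lie along the solid line.

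The libraries before and after this step, which took no part in choosing the genes, show where these levels stood earlier and later. Between late L3 and the mean of the young adult libraries, 1031 of the 1507 higher genes (68.4%) were at least 2-fold up and 170 (11.3%) at least 2-fold down. Of the 1782 lower genes, 1251 (70.2%) were down between the same libraries and 16 (0.898%) up. Over all 10749 genes these shares were 27.9% up and 27% down. Of the 618 genes at least 4-fold lower, 504 (81.6%) were down and none was up. Of the 424 genes at least 4-fold higher, 279 (65.8%) were up and 77 (18.2%) down. Most genes that stood higher in late than in early L4 were thus also higher in adults than in late L3.

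Yolk and eggshell genes stood higher throughout. All 6 vitellogenin genes, which encode the yolk lipoproteins, were higher in late L4, with a median log2 ratio of 6.01. vit-2 had 11.7 CPM in late L3, 33.4 in early L4, 2236 in late L4, and 8997 and 9172 in young adults. vit-5 went from 8.11 to 1474 CPM (71 and 12885 reads, log2 7.34) and vit-6 from 134 to 4993 CPM (log2 5.21). The smallest ratio was that of vit-1, with 23.8 and 318 CPM (log2 3.69). The 6 genes summed to 208 CPM in early and 9735 CPM in late L4. At 54 to 58 h the sum was 42449 CPM, and each of the 6 was highest in that library. The gene of the oocyte yolk receptor, rme-2, had 55.1 and 468 CPM (log2 3.07) and then 1053 and 1313 CPM in adults.

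Of 14 genes for the eggshell and egg activation, all 14 were higher, with a median log2 ratio of 2.75 and a sum of 677 CPM in early and 4567 CPM in late L4. The permeability barrier gene perm-4 had 2 and 415 reads (0.228 and 47.5 CPM), a read ratio of 208 with a 95% exact binomial interval of 57.2 to 1722. That interval, like the others below, covers counting error only. perm-2, close to it on chromosome IV, went from 6.74 to 170 CPM (log2 4.47). cbd-1, a chitin-binding protein of the outer eggshell, had 224 and 1568 CPM (log2 2.80), and the proteoglycan genes cpg-1 and cpg-2 had log2 ratios of 3.13 and 3.21. The oocyte surface receptor genes egg-1 and egg-2, both needed for sperm entry, had log2 ratios of 2.69 and 3.55. The smallest ratios were those of egg-5 (1.67) and egg-6 (1.19), and the chitin synthase gene chs-1 had 101 and 426 CPM (2.07).

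Among 27 regulators of growing oocytes, 22 were higher and none lower, with a median log2 ratio of 2.38. meg-1, a germ granule protein gene, had 0.8 and 49.7 CPM (7 and 434 reads, log2 4.81). oma-2 and oma-1, which encode zinc finger proteins needed for oocyte maturation, went from 3.08 to 81.9 CPM and from 10.4 to 41.4 CPM. The nanos relative nos-2 had 2.06 and 47.9 CPM (log2 4). lin-41, whose product holds back oocyte maturation and also acts in developmental timing, had 18.7 and 114 CPM (log2 2.55) and 349 and 329 CPM in adults. In 23 of the 27 genes the highest level of the 5 windows was that of 54 to 58 h.

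**Figure D2:**
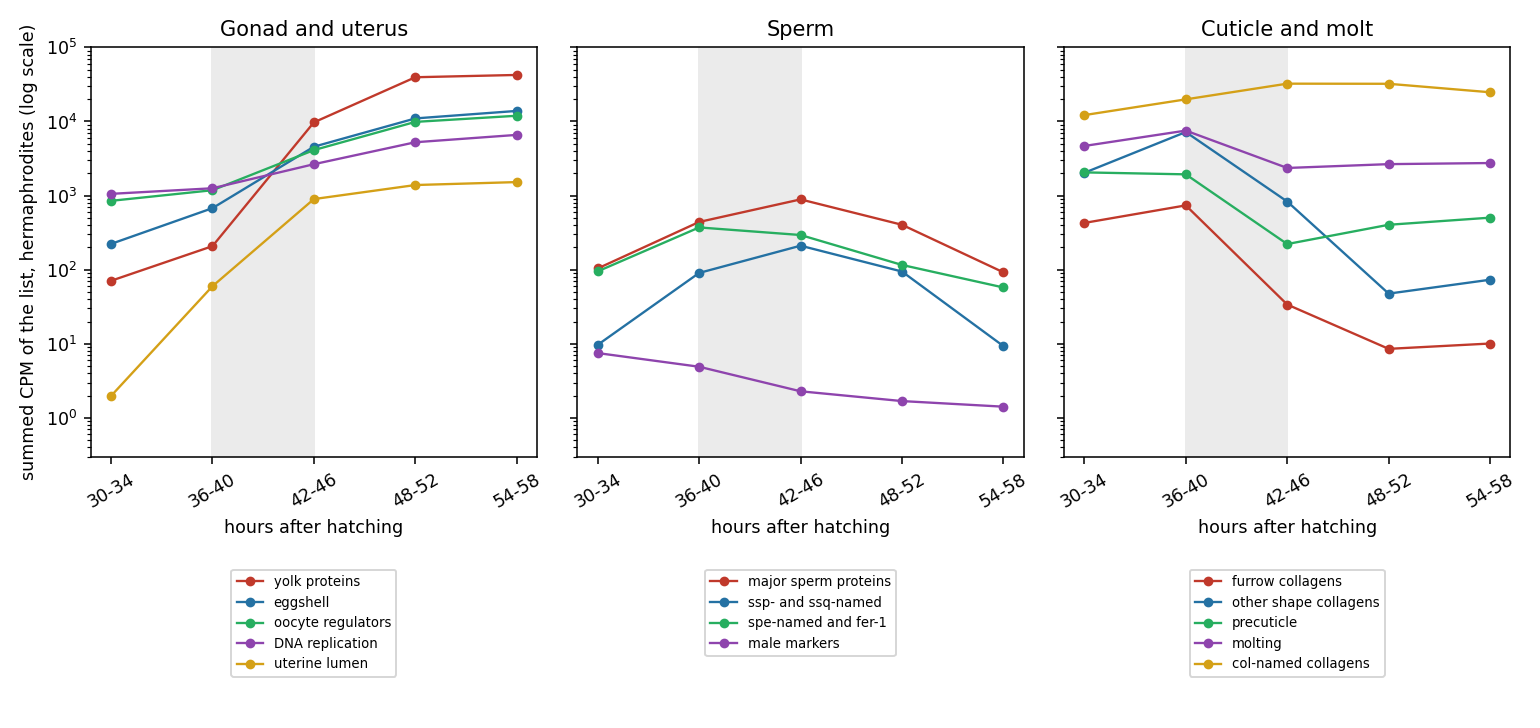
Summed CPM of gene lists in the hermaphrodite library of each window (hours after hatching, log axis), 1 library a point, with the early to late L4 step shaded. Yolk genes went from 208 to 9735 CPM within the step, major sperm protein genes were highest in late L4 at 889 CPM, and furrow collagens went from 738 to 33.9 CPM.

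Sperm genes did not move as 1 block. Of 31 major sperm protein genes, whose products drive sperm crawling and signal to oocytes, 25 reached the minimum and 15 were higher, none lower, with a median log2 ratio of 1.16. They summed to 441 CPM in early L4, 889 in late L4, and 404 and then 92.2 CPM in young adults, and each of the 25 was highest in late L4. msp-38 had 3.77 and 17.5 CPM (log2 1.96) and msp-45 had 7.88 and 32.8 CPM (log2 1.93). These genes are near-identical copies, and multiply aligned reads were not counted for any gene, so their single values are uncertain.

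The small sperm-specific genes named ssp and ssq also stood higher. Of 14 such genes, 10 reached the minimum, 8 were higher and 1 lower, with summed levels of 90.5 and 211 CPM. ssq-3 had 8 and 92 reads (log2 2.59). In contrast, of the spe-named genes and fer-1 in the sperm list, 18 reached the minimum, none was higher and 5 were lower, and the group summed to 372 CPM in early and 294 CPM in late L4. spe-49 and spe-38, both needed on sperm at fertilization, had log2 ratios of -2.11 and -1.60. The ferlin gene fer-1, needed for membrane fusion in spermatids, had 25 and 9.84 CPM (log2 -1.26). The sperm phosphatase gene gsp-3 had 52.2 and 44.7 CPM, within 2-fold. In the sperm fate pathway, fog-3 had 16.8 CPM in late L3, 2.86 in early and 0.686 in late L4 (25 and 6 reads in the step), and fog-1 had 7.65 and 8.81 CPM. The male markers given above rest on 43 reads in early and 20 in late L4, and their part in the sperm gene levels was not tested.

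**Figure D3:**
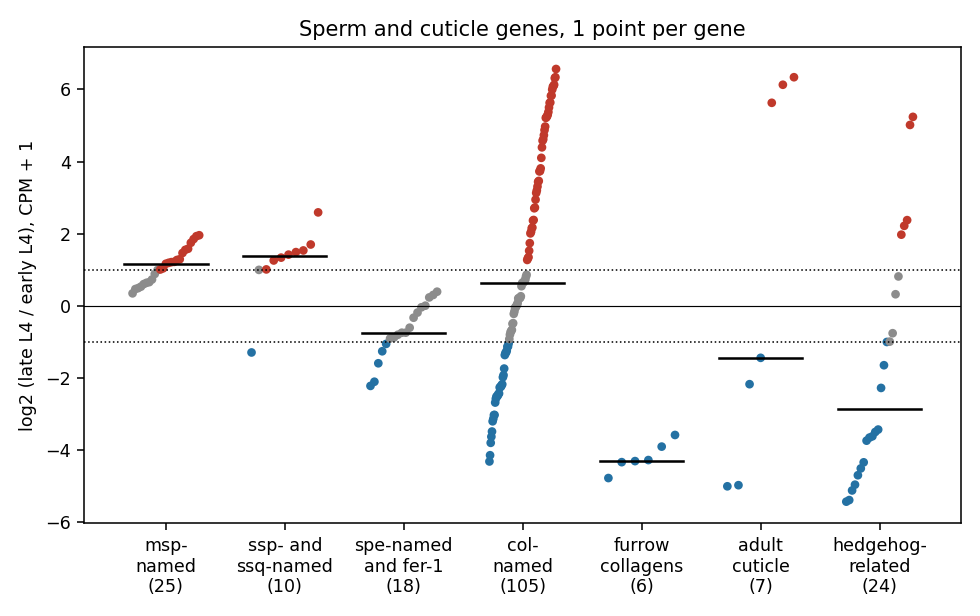
Log2 ratio of late over early L4 on CPM + 1 for the members at the minimum of 7 groups, 1 point per gene, sorted within a group, with the number of genes in brackets and the median as a bar. Dotted lines mark 2-fold, red points lie at or above it and blue points at or below it. Medians were 1.16 for msp-named, 1.38 for ssp- and ssq-named and -0.75 for spe-named genes with fer-1, and col-named collagens spread to both sides.

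Genes of the germline and of cell division stood higher by smaller ratios. Of 45 germline and meiosis genes, 44 reached the minimum and 21 were higher, none lower, with a median log2 ratio of 0.86. The germ granule helicase gene glh-2 had 6.97 and 42.6 CPM (log2 2.45) and the meiotic cohesin gene coh-4 had 10.4 and 37.5 CPM (log2 1.76). gld-1, a translational repressor of meiotic germ cells, had 83.8 and 210 CPM (log2 1.31). Of 30 DNA replication genes, 17 were higher and none lower (median 1.08), among them the GINS subunit genes psf-3 (log2 2.22) and psf-1 (1.81) and the helicase gene mcm-2 (27.2 and 60.2 CPM). All 30 replication genes were highest at 54 to 58 h. Of 23 cell division genes at the minimum, 14 were higher and none lower (median 1.10), led by the B-type cyclin genes cyb-2.2 (17.7 and 179 CPM), cyb-3 (31.9 and 223 CPM) and cyb-2.1 (17.6 and 101 CPM).

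Sex determination genes mostly stayed within 2-fold. Of 20, 15 reached the minimum and 2 were higher, near the 14% over all genes, and none was lower. The higher ones were gld-1 again and fem-3, a gene that promotes male fate and sperm (8.91 and 29.6 CPM, log2 1.63). tra-2, which promotes female fate, had 59.7 and 78.4 CPM. Of 30 histone genes at the minimum, 8 were higher and 6 lower, against 14% and 16.6% over all genes. Many histone genes are near-identical copies. his-68 had 13 and 53.4 CPM, and his-18 had 41.2 and 13.3 CPM. Of 79 ribosomal protein genes at the minimum none passed 2-fold in either direction, with a median log2 ratio of 0.02 and sums of 79994 and 81929 CPM.

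**Figure D4:**
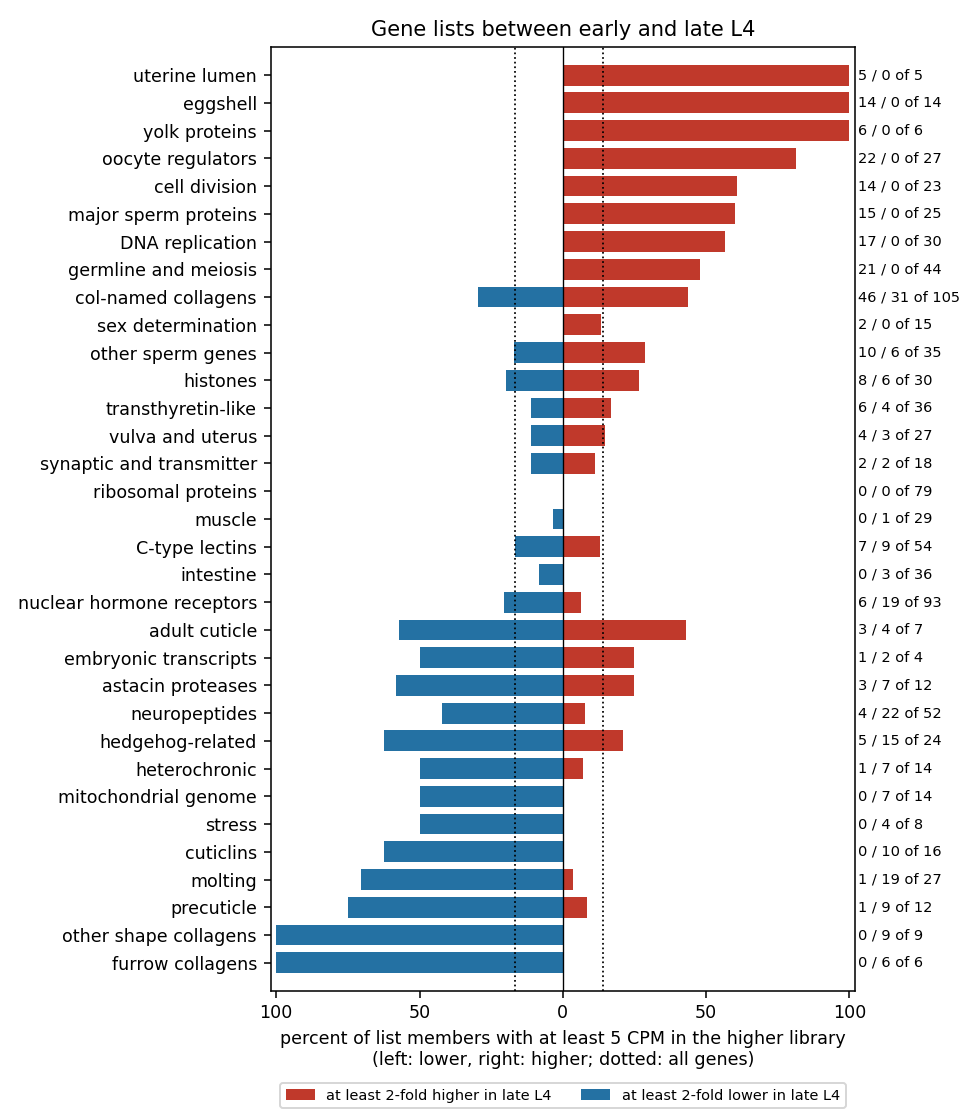
Percent of list members at the minimum that were at least 2-fold higher (red, right) or lower (blue, left) in late L4, with the counts higher / lower of members at the minimum at the right edge and the share over all genes as dotted lines (14% and 16.6%). Lists with fewer than 4 such members are not drawn. Yolk, eggshell and uterine lumen genes stood entirely on the right, and furrow and other shape collagens entirely on the left.

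The uterine lumen (ule) genes, named for proteins found in the lumen of the uterus, were all higher, and ule-3 and ule-5 had the 2 largest log2 ratios of the step. ule-3 (chromosome V, 10793798 to 10794924) had 6 reads in early and 3119 in late L4, or 0.685 and 357 CPM (log2 7.73), and 548 and 561 CPM in adults. ule-5 (chromosome X, 11883127 to 11884042) had 2 and 2008 reads, a ratio of 1006 with an interval of 278 to 8309. ule-1 had 0 and 222 reads, 74.1-fold higher against a floor of 3 reads, and its interval began at 59.8. ule-4 and ule-2 had log2 ratios of 2.28 and 2.09. The median log2 ratio of the 5 genes was 4.72, and 6.21 with ule-1 set to that floor. Their sum went from 59.9 to 898 CPM.

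Other genes of the vulva and uterus were mostly within 2-fold. Of 39 vulva and uterus genes, 27 reached the minimum, 4 were higher and 3 lower, which is near the shares over all genes. sqv-1 and sqv-5, enzymes of the chondroitin path that shapes the vulva, had 28.9 and 93.1 CPM and 59.2 and 151 CPM. The EGF-type ligand gene lin-3 had 12.1 and 27.2 CPM (log2 1.11). cdh-3, a cadherin gene expressed in the anchor cell and vulval cells, had 39.8 and 8.12 CPM (log2 -2.16). The SOX gene egl-13 and the PAX gene egl-38, both active in the uterus, had log2 ratios of -1.41 and -1.21. The FGF gene egl-17 had 0 and 10 reads.

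Both enzymes of octopamine synthesis stood higher. tbh-1, which makes octopamine from tyramine, had 0 reads in early and 520 in late L4, 174-fold higher against the floor, with an interval from 141. It had 59.5 CPM in late L4 and then 167 and 238 CPM in adults. tdc-1, which makes tyramine, had 29.5 and 131 CPM (log2 2.11) and 269 and 333 CPM in adults. In the male library of 42 to 46 h tbh-1 had 7.24 CPM. They were the 2 higher genes of 18 synaptic and transmitter genes at the minimum, and 2 were lower. These shares are no larger than the 14% higher and 16.6% lower over all genes. The vesicle protein gene snt-1 (synaptotagmin) had 22.5 and 8.81 CPM and the axonal kinesin gene unc-104 had 85.0 and 40.2 CPM, the 2 lower ones.

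The largest ratios also took in genes known only by sequence name. ZK813.7 (chromosome X, 3444814 to 3445197) had 0 and 876 reads, 292-fold higher against the floor (interval from 237), and 186 and 218 CPM in adults. Y62H9A.4 (chromosome X, 11880126 to 11881226), close to ule-5, had 0 and 606 reads and was 202-fold higher against the floor (interval from 164). At the other end, Y43D4A.5 had 528 reads and 1 read, a late-to-early ratio of 0.00190 with an interval of 4.79e-05 to 0.0106. Y65B4BL.1 went from 80.9 to 0.572 CPM (log2 -5.70), C50D2.1 from 79.3 to 0.801 (-5.48), F09F9.2 from 111 to 1.60 (-5.43) and ZC434.3 from 107 to 1.72 CPM (-5.32). dao-4 went from 0.938 CPM in late L3 to 229 in early and 5.38 CPM in late L4 (-5.17), so it was high in 1 hermaphrodite library of 5.

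Genes of the molt were mostly lower. Of 29 molting genes, 27 reached the minimum, 19 were lower and 1 higher, with a median log2 ratio of -1.78. mlt-10 had 27.9 CPM in late L3, 228 in early L4, 6.52 in late L4, and 2.31 and 4.05 CPM in adults. mlt-11, a protease inhibitor gene, had 288 and 9.15 CPM (log2 -4.83), mlt-9 had 154 and 3.20 CPM (-5.20), and qua-1, a hedgehog-related gene, had 251 and 5.83 CPM (-5.20). All 19 lower genes were highest in early L4. The exception was mlt-7, a peroxidase gene that acts in building the new cuticle, with 32.4 and 82.0 CPM (log2 1.31). The nuclear receptor gene nhr-23, a driver of the molt, had 141 and 114 reads, and nhr-25 had 3.31 and 0.572 CPM.

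Precuticle genes encode the transient matrix that patterns the epidermal surface before the cuticle is laid down. Of 14, 12 reached the minimum, and 9 were lower and 1 higher, with a median of -3.80 (-4.29 with lpr-1 set to the floor). The zona pellucida domain genes noah-1 and noah-2 had 739 and 22.4 CPM and 467 and 16.7 CPM (log2 -4.98 and -4.72). The leucine-rich repeat genes sym-1 and let-4 had log2 ratios of -4.84 and -3.94, and the fibrillin-related gene fbn-1 of -3.67. The lipocalin gene lpr-1 had 85 and 0 reads, 28.3-fold lower against the floor, with an interval of its late-to-early ratio up to 0.0444. lpr-3 had 165 and 5.61 CPM and lpr-4 had 142 and 4.58 CPM, while lpr-2 had 7.31 and 6.29 CPM. The higher member was egg-6, which is also in the eggshell list. The list summed to 1936 and 222 CPM.

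Collagens of the cuticle went both ways. The 6 collagens of the annular furrows were all lower, with a median of -4.30. dpy-7 had 56.7 CPM in late L3, 114 in early L4, 3.20 in late L4, and 0.187 and 0.810 CPM in adults. dpy-8, dpy-10, dpy-2, dpy-9 and dpy-3 had log2 ratios of -4.34, -4.31, -4.28, -3.91 and -3.59. Among 11 other collagens that set body shape, 9 reached the minimum and all 9 were lower, including lon-3 (428 and 11.2 CPM), sqt-1 (1176 and 59.6 CPM), sqt-3 (983 and 80.4 CPM) and rol-6 (292 and 21.4 CPM). The smallest ratios of these were those of dpy-4 (log2 -1.76) and dpy-13 (-1.99). dpy-14 and dpy-17, below the minimum, had 1 and 0 reads and 6 and 21 reads.

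Of 7 collagens of the adult cuticle, 3 were higher and 4 lower. The strut collagen genes bli-1 and bli-2 had 459 and 13.3 CPM and 564 and 16.9 CPM (log2 -5.01 and -4.98), with at most 0.937 CPM in adults. rol-1 had 861 and 190 CPM (-2.18) and bli-6 had 763 and 279 CPM (-1.45). In contrast, col-19, the common marker of the adult stage, had 16 and 1376 CPM (log2 6.34) and stayed at 1848 and 1549 CPM in adults. col-7 had 3 and 814 reads, or 0.343 and 93.1 CPM, and then 7.37 and 0.945 CPM in adults. col-62, close to it on chromosome I, had 1.94 and 145 CPM in the step and then 6.00 and 0.945 CPM, so both were highest in late L4.

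Of 156 col-named collagen genes, 105 reached the minimum, and 46 were higher and 31 lower. The 46 higher ones summed to 1414 CPM in early, 26720 in late L4 and 24595 CPM at 54 to 58 h. The 31 lower ones summed to 16173, 2926 and 53.5 CPM in the same libraries. Of the higher genes, 18 were highest in late L4, 17 at 48 to 52 h, 5 at 54 to 58 h and 6 in late L3. col-20 (12.8 and 1308 CPM, log2 6.57) and col-8 (4.80 and 461 CPM, log2 6.32) stayed high in adults, with 2130 and 1008 CPM at 54 to 58 h. col-81 went from 22.2 to 1583 CPM and was at 913 and 138 CPM in adults. Among the lower genes were col-110 (89.8 and 3.55 CPM), col-79 (199 and 10.3 CPM) and col-128 (40.1 and 1.94 CPM).

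Other secreted proteins of the epidermis were lower more often than higher. Of 24 hedgehog-related genes at the minimum, out of 58, 15 were lower and 5 higher, with a median of -2.86. wrt-10 had 102 and 1.37 CPM (log2 -5.44), grl-15 had 98.6 and 1.37 CPM (-5.39) and grl-7 had 337 and 8.70 CPM (-5.12). Against them, grl-21 had 29.4 CPM in late L3, 2 reads in early and 397 in late L4 (0.228 and 45.4 CPM), and 0.0675 CPM at 54 to 58 h. grl-4 had 44.5 CPM in late L3, then 0 and 274 reads, 91.5-fold higher against the floor (interval from 73.9). Both were thus high in late L3 and in late L4 and near 0 between.

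Of 16 cuticlin genes at the minimum, out of 35, 10 were lower and none higher. cutl-17 had 90 and 0 reads, 30.0-fold lower against the floor, with an interval of its late-to-early ratio up to 0.0419. Of 12 astacin metalloprotease genes at the minimum, out of 35, 7 were lower and 3 higher. nas-37, a protease needed to shed the old cuticle, had 127 and 27.2 CPM (log2 -2.18), and nas-14 had 26.8 and 1.26 CPM (-3.62). nas-9 had 30.0 CPM in late L3, 1 read in early and 214 in late L4, a read ratio of 214 with an interval of 38.1 to 8504. It too was high in late L3 and in late L4 and near 0 between.

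Developmental timing (heterochronic) genes were lower for 7 of 14 at the minimum and higher for 1, lin-41. lin-42, a relative of the clock gene period, had 9.28 CPM in late L3, 24.4 in early and 1.26 in late L4, and 1.25 and 0.810 CPM in adults. The transcription factor gene blmp-1 had 794 and 142 reads (log2 -2.41) and the F-box gene dre-1 had 165 and 39.2 CPM (-2.05). lin-29, the last factor of the pathway in the epidermis, had 13.8 and 4.35 CPM (-1.47), its cofactor gene mab-10 had 8.80 and 2.63 CPM, and hbl-1 had 12.9 and 3.78 CPM. lin-28, which acts early in this pathway and is also read in the germline, had 13 and 21.6 CPM, within 2-fold.

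Of 52 neuropeptide genes at the minimum, out of 141, 22 were lower and 4 higher, with a median of -0.80. FMRFamide-like (flp) genes were lower for 10 of 18 and higher for none, and they summed to 269 and 132 CPM. flp-20 had 12.2 and 2.17 CPM, the insulin-like gene ins-27 had 29.5 and 1.83 CPM (log2 -3.43), and nlp-3 had 13.5 and 0.686 CPM (-3.10). All 4 higher ones were nlp-named, of 30 such genes at the minimum, near the 14% over all genes, and 10 nlp-named genes were lower. They included nlp-27 (1.94 and 30.4 CPM, log2 3.42), nlp-26 (0.571 and 7.78 CPM) and nlp-24 (24.6 and 93.6 CPM). The list was drawn up by gene name, so it does not tell which tissue makes each peptide.

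Of 54 C-type lectin genes at the minimum, out of 234, 7 were higher and 9 lower, near the shares over all genes of 14% and 16.6%. clec-87 had 26.4 and 478 CPM (log2 4.13) and then 1158 and 1508 CPM in adults, clec-91 had 0.914 and 85.3 CPM (5.50), and clec-180 had 238 and 9.27 CPM (-4.54). Against 14% and 16.6% over all genes, 6 were higher and 19 lower of 93 nuclear hormone receptor genes at the minimum, out of 274. Among them were nhr-61 (5 and 67 reads, log2 2.46) and nhr-113 (64 and 0 reads, 21.3-fold lower against the floor). Of 36 transthyretin-like genes at the minimum, out of 58, 6 were higher and 4 lower, against the same 14% and 16.6% over all genes. ttr-42 had 0 and 74 reads, 24.7-fold higher against the floor (interval from 19.6), ttr-59 had 9.02 and 41.4 CPM, and ttr-57 had 7.08 and 0.572 CPM.

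Tissue markers of muscle and intestine mostly stayed within 2-fold. Over all genes at the minimum, 14% were higher and 16.6% lower. Of 29 muscle genes 1 was lower, the troponin I gene tni-1 (152 and 73.6 CPM, log2 -1.03), with a list median of -0.23, and the body wall myosin gene unc-54 had 3196 and 2529 CPM. Of 36 intestinal genes 3 were lower, the cathepsin B genes cpr-4 (513 and 174 CPM) and cpr-6 (707 and 331 CPM) and the GATA factor gene elt-7 (6.51 and 2.17 CPM), and none was higher. Of 8 stress genes at the minimum 4 were lower, cyp-35A2 (146 and 38.1 CPM), gst-10 (127 and 40.8 CPM), hsp-16.2 (205 and 94.0 CPM) and hsp-16.41 (249 and 120 CPM). Of 14 genes of the mitochondrial genome at the minimum 7 were lower and none higher, with sums of 104741 and 54237 CPM and a median of -1.01. Of 4 embryonic transcript genes at the minimum, the homeobox gene pal-1, whose mRNA is also made in the germline, had 8.68 and 35.2 CPM, and pha-4 and elt-1 had log2 ratios of -1.31 and -1.30.

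The male libraries of the same windows were read by the same rule, as values beside the hermaphrodite step, since 1 library each allows no test of the difference. Of 11750 male genes at the minimum, 1064 (9.06%) were at least 2-fold higher in late L4 and 1298 (11%) at least 2-fold lower. Higher in both sexes were 301 genes, 20.0% of the hermaphrodite and 28.3% of the male higher genes. Lower in both were 733 genes, 41.1% of the hermaphrodite and 56.5% of the male lower genes. In opposite directions, 11 genes were higher in hermaphrodites and lower in males, 0.730% of the hermaphrodite higher genes. The reverse held for 28 genes, 1.57% of the hermaphrodite lower genes. Of all 10749 hermaphrodite genes at the minimum, 5.87% were higher and 9.83% lower in males. Of the 1507 higher genes 1303 reached the minimum in males, and of the 1782 lower ones 1576 did, and the others could not be called there. Over the 10102 genes at the minimum in both sexes, the log2 ratios had a Pearson correlation of 0.64 and a Spearman correlation of 0.38, as a description across genes, which are not independent.

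Most genes of several cuticle lists were lower in males as well, without a test of the difference between the sexes. The 6 furrow collagens were lower in males too (median -3.30), as were 10 other shape collagens, 12 of 14 precuticle genes, 17 of 26 molting genes and 21 of 26 cuticlins, against 10 of 16 cuticlins in hermaphrodites. col-19 had 57.1 and 2334 CPM in males, col-7 had 3.13 and 160 CPM, and bli-1 had 531 and 48.2 CPM. For lists of the gonad, of 22 oocyte regulators at the minimum in males, 2 were higher and 1 lower (median 0.35), no DNA replication gene was higher and 1 was lower (median -0.12), and no cell division gene passed in either direction (median 0.27). In males 9 of 80 ribosomal protein genes were lower, near the 11% over all male genes, with a list median of -0.72. Of 14 mitochondrial genes none passed (median 0.21). C-type lectin genes were higher for 43 of 90 in males, against 9.06% over all male genes.

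The yolk genes were also higher in the late male library, with 6 of 6, but their level there was low. They summed to 5.62 CPM in early and 394 CPM in late L4 males, which is 4.05% of the hermaphrodite sum of the same window. The ule genes in that male library summed to 3.63% of the hermaphrodite level, with ule-3 at 18.4 CPM and ule-1 at 0 CPM. The eggshell sum in males was 12.7% of the hermaphrodite one at 42 to 46 h and 52.5% at 36 to 40 h. The sums of yolk and ule reads, but not of eggshell reads, thus stood at a like share in the male library of 42 to 46 h. Where the yolk and ule reads came from was not tested. Ratios of yolk and ule genes in males rest on those reads.

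**Figure D5:**
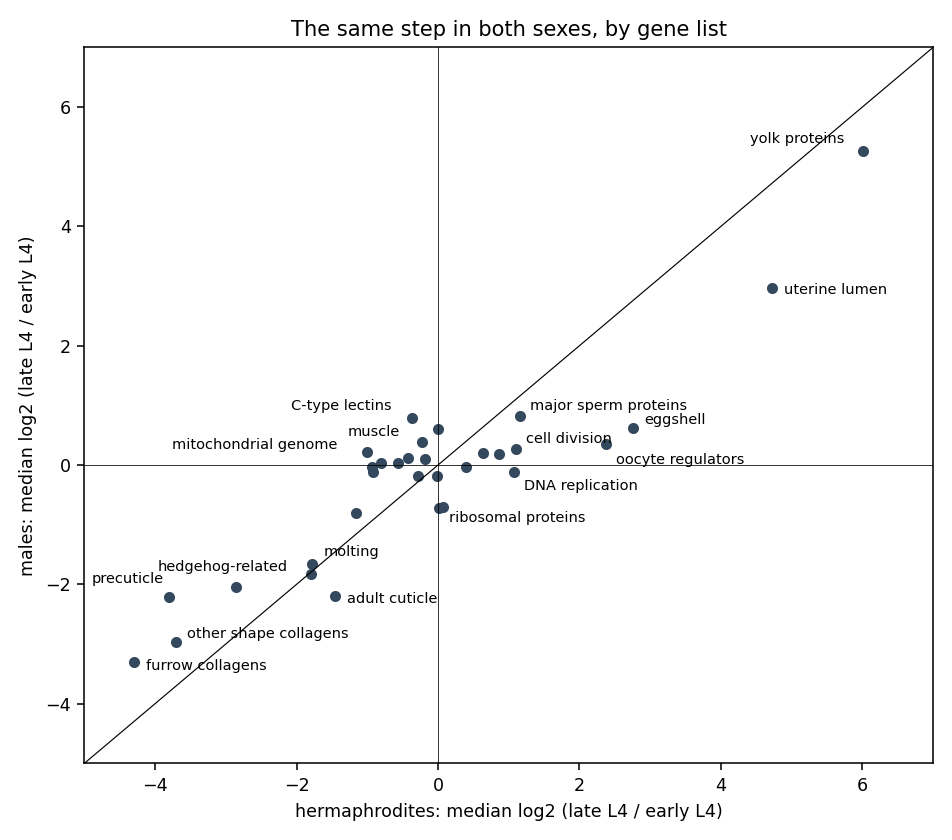
Median log2 ratio of late over early L4 on CPM + 1 for each gene list in hermaphrodites (x) and males (y), over the members at the minimum in each sex, with the line of equal values. Lists with fewer than 5 such members in hermaphrodites or 3 in males are not drawn. Furrow collagens had -4.30 and -3.30, oocyte regulators 2.38 and 0.35, and the male medians of yolk and uterine lumen genes rest on the low levels given in the text.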

How the data were processed

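Total RNA of whole animals was sequenced, and the authors deposited unnormalized counts of reads for each gene. CASAVA 1.8 and HTSeq were used, per the submitters' processing notes. Aligner, build and strand setting were not given in the sources used here, so reads of overlapping or antisense genes cannot be told apart. Each table listed 46589 genes and 5 total rows, which were dropped. Names and 1-based positions came from Ensembl's annotation of WBcel235, where 46180 sequence names matched and 409 did not. 1312 genes that share a symbol are given by sequence name. TMM factors came from edgeR 4.0.16 (R 4.3.3) over the 15924 genes that reached 1 CPM in 2 or more libraries. Ratios used a pseudocount of 1 CPM and a minimum of 5 CPM in the higher library. They were computed with Python 3.11.15 and tested on simulated data. Intervals are 95% exact binomial intervals of the read ratio, and floors are 3 reads.

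The members and the 34 gene lists were chosen with earlier results of these data known. The text names genes from the 10 largest ratios each way, up to 3 members a list each way, all members of lists of up to 14 genes, and a set of key genes, 221 in all, not all of which are reported here. Alternatives were other scalings, pseudocounts and minimums. Sequences and promoter motifs were not analysed here.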

Additional observations from a re-analysis of the deposited data

Results flagged for a closer look

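A few genes passed 2-fold in opposite directions in the sexes over the same windows. The difference between the sexes was not tested, since each side is 1 library. The transthyretin-like gene ttr-26 had a log2 ratio of -1.66 in hermaphrodites (13 and 3.43 CPM) and 1.44 in males (9.86 and 28.5 CPM). The FoxA factor gene pha-4 had -1.31 in hermaphrodites (55 and 17 reads) and 1.62 in males (1.56 and 6.88 CPM). Over all genes, 11 were higher in hermaphrodites and lower in males, 0.730% of the hermaphrodite higher genes. Another 28 were lower in hermaphrodites and higher in males, 1.57% of the hermaphrodite lower genes. Of all hermaphrodite genes at the minimum, 9.83% were lower and 5.87% higher in males.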

How the results depend on the processing

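The counts of genes past each fold, the list counts and medians and the named genes were recomputed under 9 alternatives, except the mitochondrial list where its genes were left out. Counts in males, by chromosome, over the course and of neighbours were not recomputed. No gene or list median past 2-fold changed sign. Some list medians within 2-fold did: over the alternatives that flip it, the vulva and uterus median went from -0.01 to between 0.01 and 0.07, and that of ribosomal proteins from 0.02 to -0.03. With no minimum, the medians of transthyretin-like, C-type lectin and embryonic genes went from -0.18, -0.37 and -0.97 to 0.12, 0.14 and 0.16. With a changed minimum, list medians past 2-fold that fell within it numbered 1 at 1 CPM and 4 with none. Over all members, genes without reads included, the medians were 0.0 for hedgehog-related genes and astacins, -0.75 for cuticlins and 0.99 for major sperm proteins. Those at the minimum had -2.86, -1.16, -1.79 and 1.16. The median of all genes went from 0.04 to -0.01 with a minimum of 1 CPM. Of named genes, 25 of 1986 values moved to the other side of the 2-fold limit. With a pseudocount of 5 CPM, 28 values of list medians or named genes fell within 2-fold. That is more than the 25 values of named genes, so list medians past 2-fold were among them. Over the 4 other scalings the higher genes numbered 1384 to 1584 and the lower ones 1816 to 1910, and no count moved by over 1.5 times. With a pseudocount of 5 CPM there were 1095 lower genes, and 202 and 285 genes passed 4-fold upward and downward. Then 6 other sperm genes were higher and 3 lower, 1 nuclear hormone receptor was higher and 9 lower, and the lower counts were 3 for histones, 2 for transthyretin-like, 8 for neuropeptides, 3 for C-type lectins, and 0 for muscle, synaptic and embryonic genes. With a minimum of 1 CPM, or with none, 2334 genes were higher and 2839 lower. The higher and lower counts were then 10 and 11 for astacins, 18 and 37 for nuclear hormone receptors, 8 and 38 for neuropeptides and 20 and 17 for C-type lectins. Higher were also 10 transthyretin-like, 2 embryonic, 1 stress, 1 other shape collagen and 1 cuticlin gene, and lower 1 sex determination, 6 vulva and uterus and 2 male marker genes. With a minimum of 10 CPM, lower were 6 cuticlins, 1 transthyretin-like, 14 neuropeptide and 1 embryonic gene, 2 nuclear hormone receptors were higher and 12 lower, and 4 C-type lectins were higher and 2 lower. The minimum sets how many genes with few reads are kept, and a larger pseudocount shrinks ratios, most for genes with few reads. Not all moved counts rest on few reads. The muscle gene tni-1 had 1327 and 643 reads, and its log2 ratio of -1.03 lay close to the 2-fold limit. No paired analysis was possible because each group holds 1 library, and for the same reason no replicate could be left out.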

Other observations

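Genes of the X chromosome were at least 2-fold lower more often than autosomal ones, and 4-fold differences were more frequent on X in both directions. Of 1340 X-linked genes at the minimum, 357 (26.6%) were at least 2-fold lower in late L4 and 161 (12%) higher, with a median log2 ratio of -0.44. Of 9309 autosomal genes, 15% were lower and 14.4% higher, with a median of 0.12. In males 22.2% of X-linked and 9.58% of autosomal genes were lower. X-linked genes held 8.31% of hermaphrodite gene reads in early and 6.83% in late L4. At least 4-fold, 88 of the 1340 X-linked genes were higher and 134 lower, against 335 and 475 of the 9309 autosomal ones. Among the higher genes on X were 5 of the 6 yolk genes, ule-5 and col-19.

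Genes at least 4-fold changed lay beside each other in places. The next gene along the chromosome was also 4-fold higher for 43 of 423 such genes (10.2%) and 4-fold lower for 61 of 607 (10%), against 3.94% and 5.75% of all genes at the minimum, with no test of the excess. There were 10 runs of at least 3 neighbours in the same direction, 4 higher and 6 lower. On chromosome X, ZK813.3, ZK813.2, ZK813.7 and ZK813.1 (3441839 to 3446935) had log2 ratios of 4.04 to 6.66, and Y62H9A.3, Y62H9A.4, Y62H9A.5 and ule-5 (11879110 to 11884042) of 5.85 to 7.55. The lipocalin genes lpr-3, lpr-6, lpr-5 and lpr-4 (11057401 to 11066811) had -4.89 to -3.67. Overlapping reads of close neighbours were not tested.

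Among transcript classes other than protein-coding genes, 5 of 8 long intergenic noncoding RNAs at the minimum were lower, with sums of 360 and 205 CPM, and of 49 small nucleolar RNAs 5 were higher and 2 lower. Of 151 pseudogenes at the minimum, 22 were higher and 44 lower. Over all genes at the minimum the shares were 14% higher and 16.6% lower, so the higher count of pseudogenes was near that share. Genes known only by sequence name made up 46.0% of those 4-fold higher and 47.6% of those 4-fold lower, against 39.2% of all genes at the minimum.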
